A study of Mus musculus with 2 samples.

Results

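Chemokines are small secreted proteins that bind G protein-coupled receptors and direct the migration of leukocytes, and keratinocytes, which make up most of the epidermis, are one of their sources in skin. Inducible chemokines are transcribed after injury or cytokine signalling, largely through NF-kB, and draw in neutrophils, monocytes and T cells. Homeostatic chemokines are made in resting skin and serve immune surveillance. Transcripts of 10 chemokine genes were examined here among the 47719 genes of 1 RNA sequencing table. They were taken from a list of gene names, each found by its symbol, with no threshold on their values. The list was chosen with earlier results of these data known. Shares of members set beside shares of all genes below are therefore descriptions and no test of enrichment. They were grouped as inducible (Cxcl1, Cxcl2, Cxcl5, Ccl2 and Ccl20), homeostatic (Cxcl12, Cxcl14 and Ccl27a) and transmembrane (Cxcl16 and Cx3cl1). The last pair is made as membrane proteins and was put in neither of the other classes.

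The table compares 1 library of Pp6fl/fl keratinocytes with 1 library of K5.Pp6fl/fl keratinocytes, both grown for 3 days in Medium 154CF from tail skin of 8-week-old C57BL/6J mice. Pp6 is the catalytic subunit of protein phosphatase 6, Ppp6c in the gene annotation. Both genotypes carry the floxed allele. K5 is the promoter of keratin 5, active in basal keratinocytes, and the second library is titled cKO, for a conditional knockout; the recombinase itself is not spelled out in the labels, nor is the number of mice behind each culture. There were no replicates, so no difference below was tested against the spread between cultures, and the intervals given (95%) cover nothing beyond counting error. The libraries held 19374773 and 17361271 estimated reads in genes. Depth-scaled read counts are given in CPM, the usual unit of reads relative to library size. Ppp6c stood at 55.5 CPM in Pp6fl/fl and 40.7 CPM in K5.Pp6fl/fl cells, a fold of 0.733 (0.666 to 0.807). By FPKM, the authors' value per gene length, its fold was 0.548, and the effective length implied by the deposited values went from 1812 to 2430 bases. Transcript of the targeted gene therefore remained in the library labelled K5.Pp6fl/fl, and the table has no values per exon. The keratinocyte markers Krt14, Krt6a and Krt5 were abundant in both libraries, with at least 17102 CPM each.

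Inducible chemokines held the 3 members that were at least 2-fold higher in the K5.Pp6fl/fl library, while the homeostatic members Cxcl14 and Ccl27a had folds of 1.06 and 1.05. The classes overlapped by point value, since the homeostatic Cxcl12, at 1.58-fold, stood above the inducible Cxcl2, at 1.25, and Cxcl5, at 0.782. The counting interval of Cxcl12 overlapped those of all 5 inducible members. A gene was counted as 2-fold apart when its log2 ratio, K5.Pp6fl/fl over Pp6fl/fl with 0.5 CPM added to both values, was at least 1 in size, its larger value was at least 1 CPM and its counting interval excluded a ratio of 1. Genes that reached 1 CPM in either library are called expressed. By this rule 0.811% of the 12326 expressed genes were 2-fold higher and 0.195% were 2-fold lower. Among the chemokines 9 of 10 were expressed, of which 3 were 2-fold higher and 0 lower. All 3 were inducible, out of 5 expressed inducible members. A counting interval wholly above 1 was found for 5 of the 9, against 16.6% of expressed genes, and an interval wholly below 1 for none, against 17.4%. Of the 9 expressed members 8 had a log2 ratio above 0, as did 46.9% of expressed genes. The median log2 ratio over the 9 was 0.30, against -0.01 over all expressed genes.

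**Figure D1:**
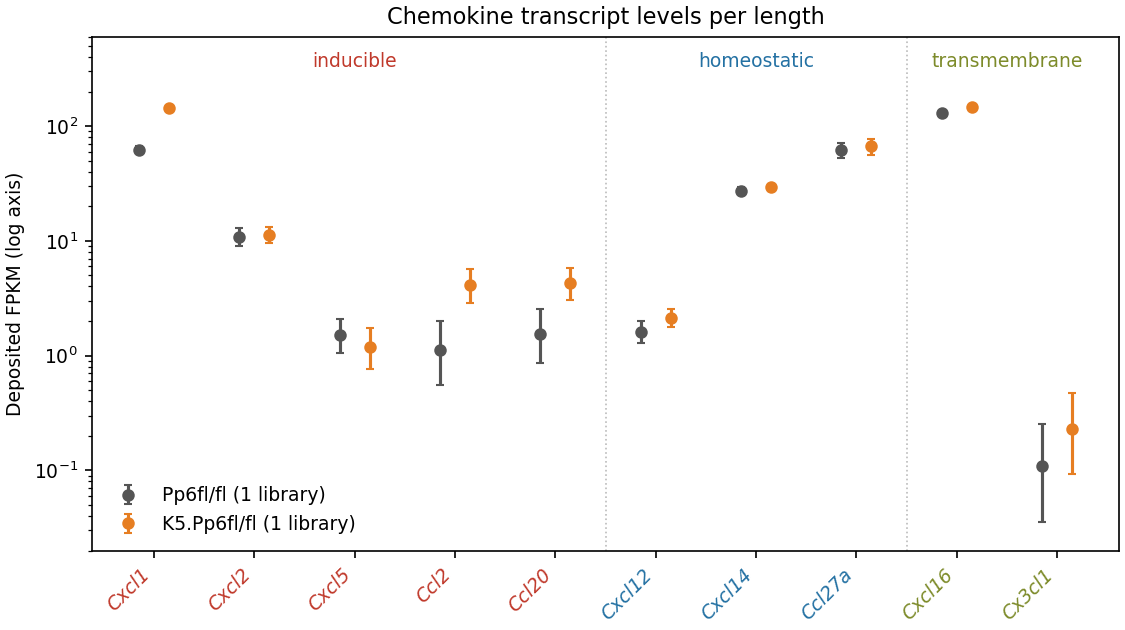
Deposited FPKM (log axis) of each chemokine gene in the Pp6fl/fl library (grey) and the K5.Pp6fl/fl library (orange), by class; each point is 1 library and bars are 95% Poisson counting intervals scaled to FPKM. Cxcl1 moves from 62.1 to 143, next to Cxcl16 at 147, and Ccl2 and Ccl20 separate between the libraries, whereas the points of Cxcl14 and of Ccl27a lie side by side.

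Levels between genes were compared by FPKM, the authors' depth-scaled count per kilobase of effective gene length. In the Pp6fl/fl library Cxcl16 was the highest at 131 FPKM (127 to 135). Cxcl1 followed at 62.1 (57.9 to 66.5) and Ccl27a at 61.3 (52.2 to 71.4), and these neighbours did not differ beyond counting error. Below them came Cxcl14 at 27.4 and Cxcl2 at 10.8, each apart from its neighbours. Cxcl12, Ccl20, Cxcl5 and Ccl2 stood between 1.12 and 1.61 FPKM with overlapping intervals, and Cx3cl1 was last at 0.109. In the K5.Pp6fl/fl library Cxcl1, at 143 FPKM (136 to 150), was no longer apart from Cxcl16, at 147 (142 to 152). Ccl20 and Ccl2, at 4.26 and 4.1 FPKM, stood above Cxcl12 at 2.14 and Cxcl5 at 1.18. The upper 5 places were held by the same genes in the same order in both libraries, while the order of the lower ones differed.

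The composition of the chemokine reads differed along the same lines. Inducible members held 17.2% (Wilson interval 16.3 to 18.2) of the reads of all 10 genes in the Pp6fl/fl library, and 28.3% (27.3 to 29.4) in the K5.Pp6fl/fl one. Homeostatic members held 18.1% (17.2 to 19.2) and 15.7% (14.8 to 16.5), and the transmembrane pair 64.6% (63.4 to 65.8) and 56.0% (54.8 to 57.2). Cxcl1 alone went from 13.9% (13.1 to 14.9) to 24.6% (23.6 to 25.7). Shares of 1 total depend on each other, so a larger share of one class lowers the others.

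Cxcl1, Cxcl2 and Cxcl5 encode neutrophil attractants that act on the receptor CXCR2. Reads are given for the Pp6fl/fl library first and the K5.Pp6fl/fl library second, with exact Poisson intervals. Cxcl1 had 808 reads (753 to 866) and 1633 reads (1555 to 1714). This is 41.8 and 93.9 CPM, a fold of 2.25 (2.07 to 2.45). Only 62 expressed genes, 0.503%, had a higher log2 ratio. Cxcl2 had 128 reads (107 to 152) and 144 (121 to 170), or 6.61 and 8.28 CPM, a fold of 1.25 with an interval that included 1 (0.98 to 1.6). Cxcl5 was the only member with a lower value in the K5.Pp6fl/fl library, at 37 reads (26.1 to 51.0) and 26 (17.0 to 38.1), a fold of 0.782 whose interval (0.455 to 1.33) included 1. The 3 neutrophil attractants thus did not share 1 fold. The fold of Cxcl1 was 1.8 times that of Cxcl2 (1.38 to 2.33) and 2.87 times that of Cxcl5 (1.68 to 4.98), by exact conditional intervals of the ratio of 2 folds, in which the scaling of the libraries cancels.

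These genes sit in 1 cluster on mouse chromosome 5. RefSeq on GRCm38.p6 lists them there in the order Cxcl5, Ppbp, Pf4, Cxcl3, Cxcl15, Cxcl1 and Cxcl2. Cxcl3, another CXCR2 ligand and no member of the set, went the other way. It had 220 and 132 reads, 11.4 and 7.59 CPM, a fold of 0.668 (0.534 to 0.833). Relative to Cxcl3, the fold of Cxcl1 was 3.37 times as large (2.66 to 4.28), so genes of the same cluster stood on opposite sides of 1. Ppbp had 3 and 2 reads, and Pf4 and Cxcl15 had none. Transcripts of Cxcl2 and Cxcl3 share a stretch of 550 bases at 90.7% identity, so the authors' counting could have split some reads between them. Their sum was 348 and 276 reads, a fold of 0.883 (0.751 to 1.04), on the other side of 1 from Cxcl2 alone. No transcript of another gene shared such a stretch with Cxcl1.

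Promoters of this cluster are shown because genes with different folds carry the same NF-kB motif. The motif searched was GGG, 2 bases of any kind and then TTTCC, on both strands, in the RefSeq windows of GRCm38.p6 from 250 bases before to 50 after each gene start. Of 32851 windows 1.63% held a match. A window was found for 7 of the 10 members (none was found for Cxcl5, Ccl2 and Cxcl16), and 3 of these 7 held a match: Cxcl1, Cxcl2 and Ccl20. The windows of Cxcl12, Cxcl14, Ccl27a and Cx3cl1 held none. Ccl27a had 3 windows and each other member with a window had 1. The member count is thus per gene, whereas the 1.63% is per window. The window of Cxcl3 also held a match. The following 140 bases run 5′ to 3′ on the plus strand, from 120 before to 20 after the start, at chr5:90891125-90891264 for Cxcl1, chr5:90903779-90903918 for Cxcl2, chr5:90785981-90786120 for Cxcl3 and chr1:83116646-83116785 for Ccl20, with matches in capitals.
Cxcl1: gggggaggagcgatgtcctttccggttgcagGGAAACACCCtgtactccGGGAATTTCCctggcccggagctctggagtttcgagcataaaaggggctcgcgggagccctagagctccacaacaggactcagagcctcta
Cxcl2: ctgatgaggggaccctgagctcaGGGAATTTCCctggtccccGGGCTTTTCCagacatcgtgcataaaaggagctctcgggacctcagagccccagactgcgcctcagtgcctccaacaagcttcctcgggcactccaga
Cxcl3: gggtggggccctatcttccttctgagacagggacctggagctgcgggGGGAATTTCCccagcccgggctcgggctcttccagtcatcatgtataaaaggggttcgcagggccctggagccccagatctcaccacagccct
Ccl20: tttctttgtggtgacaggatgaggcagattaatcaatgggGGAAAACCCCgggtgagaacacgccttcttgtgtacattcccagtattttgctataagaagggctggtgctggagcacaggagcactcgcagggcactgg
The run GGGAATTTCC occurs in the first 3 of these, beginning 71 bases before the start in Cxcl1, 97 in Cxcl2 and 73 in Cxcl3. Their folds were 2.25, 1.25 and 0.668. Cxcl1 has a second match on the other strand, GGAAACACCC, 89 bases before the start, Cxcl2 a second one, GGGCTTTTCC, at 78, and Ccl20 a single one, GGAAAACCCC, at 80. A match of letters is no measure of factor binding, which was not assayed.

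**Figure D2:**
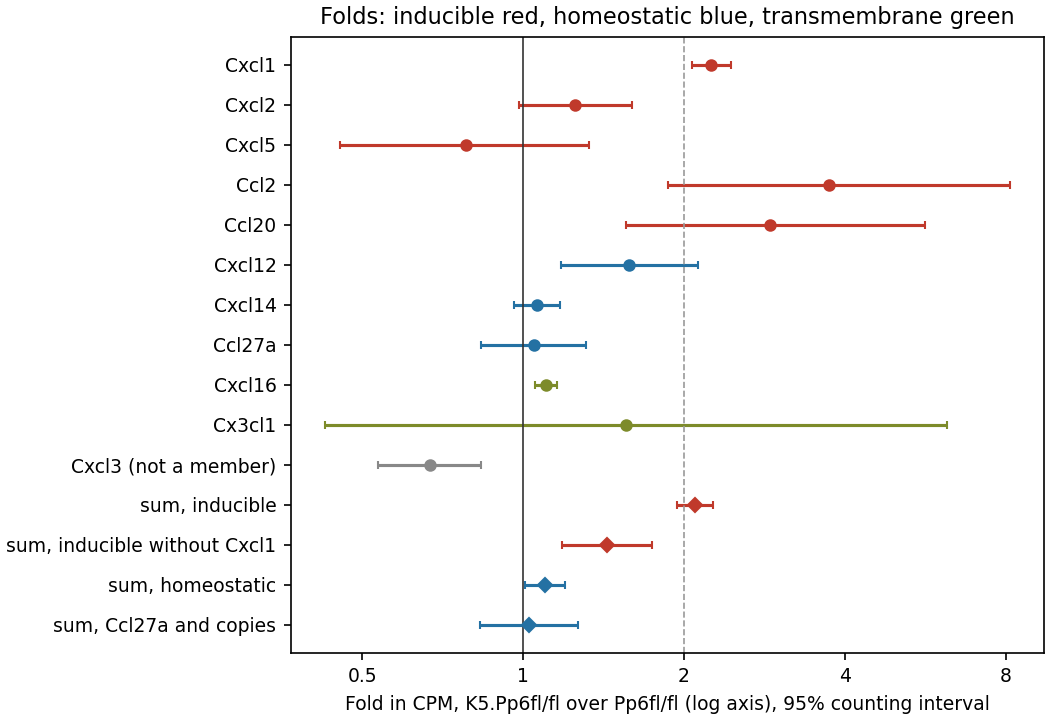
Fold in CPM, K5.Pp6fl/fl over Pp6fl/fl (log axis), of each chemokine gene (circles) and of summed reads (diamonds), 1 library per genotype, with exact 95% counting intervals; the dashed line marks 2-fold. Of the single genes plotted, Cxcl1 is the only one whose whole interval lies above 2, Ccl2 and Ccl20 have wide intervals, and Cxcl3 lies below 1.

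Ccl2, which attracts monocytes through CCR2, and Ccl20, which attracts CCR6-bearing T cells and dendritic cells, had the larger folds but few reads. Ccl2 had 11 reads (5.49 to 19.7) and 37 reads (26.1 to 51.0), or 0.568 and 2.13 CPM, a fold of 3.74 (1.87 to 8.14). Ccl20 had 15 reads (8.4 to 24.7) and 39 (27.7 to 53.3), or 0.775 and 2.24 CPM, a fold of 2.89 (1.56 to 5.65). For both genes the intervals of the reads did not overlap between the libraries. Neither was 2-fold apart with 2 CPM added in place of 0.5, which gave log2 ratios of 0.68 for Ccl2 and 0.61 for Ccl20, or at a floor of 5 CPM, which neither gene reached. Their folds could not be told from that of Cxcl1, whose fold was 0.601 times that of Ccl2 (0.275 to 1.21) and 0.777 times that of Ccl20 (0.396 to 1.45). Ccl2 begins a cluster on chromosome 11 with Ccl7, Ccl11, Ccl12, Ccl8 and Ccl1. Of these neighbours Ccl7 had 3 and 2 reads and the other four had none. A gene model on the opposite strand, Gm17268, spans Ccl2 but was counted at 0 in both libraries.

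Among the homeostatic genes, Cxcl14, a chemokine of normal epithelium, had 807 reads (752 to 865) and 769 reads (716 to 825). Its levels were 41.7 and 44.2 CPM, a fold of 1.06 (0.96 to 1.17). Cxcl14 and Cxcl1 thus had almost the same number of reads in the Pp6fl/fl library, and the fold of Cxcl1 was 2.12 times that of Cxcl14 (1.86 to 2.42). Ccl27a encodes the ligand of CCR10 that guides T cells to skin. It had 164 reads (140 to 191) and 154 (131 to 180), or 8.47 and 8.86 CPM, a fold of 1.05 (0.834 to 1.31).

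Ccl27a has copies that share 98.6 to 99.3% of their sequence over 264 to 766 bases, namely Ccl27b, Gm13306, Gm20878, Gm21586 and Gm21953. The sum of all 6 genes was 191 and 176 reads, a fold of 1.03 (0.831 to 1.27), so the value did not rest on how reads were split among them. Il11ra1 overlaps the end of Ccl27a by 8 bases, and the sum of this pair had a fold of 1.16 (1.01 to 1.33). Its FPKM, as high as that of Cxcl1 in the Pp6fl/fl library, came from 164 reads against 808, because the deposited values correspond to an effective length near 138 bases, shorter than any annotated Ccl27a transcript (343 to 996 bases). The place of Ccl27a in the order of levels therefore depends on that length. Effective lengths of Cxcl1, Cxcl5, Ccl2 and Ccl20 also lay below their shortest annotated transcripts, for Cxcl1 672 bases in Pp6fl/fl against 953.

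Cxcl12, which acts on CXCR4 and is scavenged by ACKR3, was the homeostatic gene whose read counts differed beyond counting error. It had 81 reads (64.3 to 101) and 115 reads (94.9 to 138), or 4.19 and 6.62 CPM, a fold of 1.58 (1.18 to 2.13), short of the 2-fold rule. Its fold was 1.49 times that of Cxcl14 (1.09 to 2.04), by counts. By FPKM neither difference was kept: the fold of Cxcl12 was 1.33 (0.991 to 1.79) and its ratio to that of Cxcl14 1.25 (0.914 to 1.71), with the counting intervals scaled alike, a setting added after seeing the data. The deposited values imply an effective length of 2591 bases in the former library and 3092 in the latter. Cxcl2 showed the same shift, from 613 to 734 bases, with a fold of 1.05 by FPKM. By counts, the fold of Cxcl1 was 1.42 times that of Cxcl12 (1.04 to 1.93) and the fold of Ccl2 2.36 times (1.1 to 5.45). The fold of Ccl20 was 1.83 times that of Cxcl12, with an interval that included 1 (0.912 to 3.82). Fibroblasts are the usual source of Cxcl12 in skin, and they make Ccl2 as well. The 8 fibroblast markers summed to 1.81 and 2.13 CPM. Of these, only Vim, at 19 and 21 reads, was expressed. Pdgfra came next with 7 and 10 reads, a fold of 1.59 (0.546 to 4.92). Col1a1 had 1 and 5 reads, and Col1a2, Col3a1, Dcn and Pdgfrb had at most 4, while Lum was at 0. The part of such cells in the values of Cxcl12 and Ccl2 was not tested. In a culture of mixed cells, more cells of a type and more RNA per cell cannot be told apart.

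The transmembrane chemokines are shed from the cell surface by the proteases ADAM10 and ADAM17. Cxcl16, the ligand of CXCR6, had 3741 reads (3622 to 3863) and 3708 reads (3590 to 3829). Its 193 and 213 CPM gave a fold of 1.1 (1.05 to 1.16), small but apart from 1 by counting error. Zmynd15 overlaps Cxcl16 on the opposite strand by 552 bases, and the library kit does not mark strand. Zmynd15 itself had a fold of 1.2 (1.12 to 1.29), and the sum of both genes 1.13 (1.09 to 1.18). Cx3cl1, or fractalkine, the ligand of CX3CR1, was below 1 CPM, with 5 and 7 reads, a fold of 1.56 (0.426 to 6.23) by CPM and 2.11 by FPKM, so no difference was detectable at this depth. The sheddase genes Adam10 and Adam17, from the list on release and presentation and named here after their values were seen, had folds of 1.1 (1.02 to 1.18) and 1.05 (0.978 to 1.13).

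Set against each other, the classes had median log2 ratios of 1.11 (inducible, 5 genes) and 0.08 (homeostatic, 3 genes), a difference of 1.02. The middle genes are Ccl20 and Cxcl14. Crossing the ends of their counting intervals, which are of folds without the added 0.5 CPM, gave log2 differences from 0.41 to 2.56. That range is for these 2 genes and is no interval of the difference of medians. Summed reads went from 999 to 1879 for the inducible and from 1052 to 1038 for the homeostatic genes. In CPM this is 51.6 and 108 against 54.4 and 59.7, or folds of 2.09 (1.94 to 2.26) and 1.1 (1.01 to 1.2). The first fold was 1.91 times the second (1.7 to 2.14). Cxcl1 held 80.9% (78.3 to 83.2) and 86.9% (85.3 to 88.4) of the inducible reads, so the sum is mostly this gene. Without Cxcl1 the inducible fold was 1.43 (1.18 to 1.74), which was 1.31 times the homeostatic fold (1.06 to 1.62), and the difference of medians was 0.62. These values depend on the choice of members, since Cxcl3, at 0.668-fold, is in neither class. Its 220 reads in the Pp6fl/fl library exceeded the 191 of the other 4 inducible genes together, and it had 132 against 246 in K5.Pp6fl/fl. A class sum with Cxcl3 added was not computed. The inducible genes also spread more, with log2 ratios from -0.27 to 1.30 against 0.06 to 0.60. Members of a class are not replicates, so these values describe the 2 libraries.

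**Figure D3:**
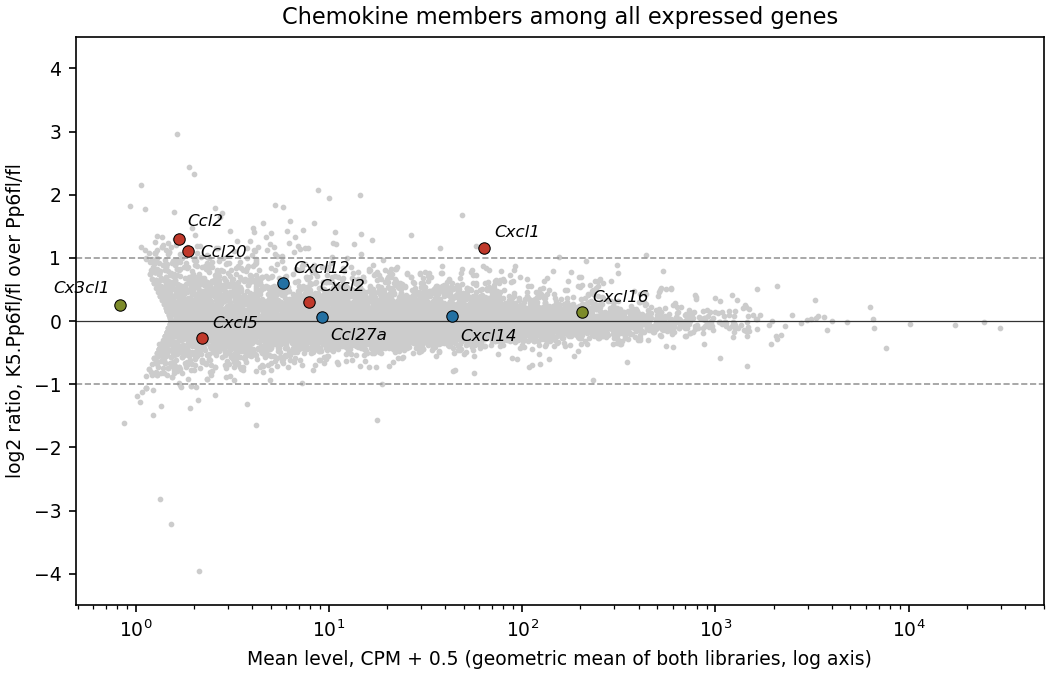
Log2 ratio, K5.Pp6fl/fl over Pp6fl/fl, against mean level (log axis) for all 12326 expressed genes (grey) and the 10 chemokine genes (red inducible, blue homeostatic, green transmembrane), 1 library per genotype; Cx3cl1 lies below the 1 CPM floor. Cxcl1 lies above the dashed 2-fold line where few genes do, while Ccl2 and Ccl20 lie in the wide spread of low genes.

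The authors' deposited table marks 3 members as significant, again Cxcl1, Ccl2 and Ccl20, from the same 2 libraries. It marks 0.356% of its 47719 listed genes, of which only 12326 were expressed, whereas 9 of the 10 members were. That table gives log2 fold changes of 1.2, 1.78 and 1.41 with FDR values of 6.37e-50, 0.000802 and 0.00525. For Cxcl12 the authors' deposited table has 0.39 with an FDR of 0.0213, unmarked, and for Cxcl16 0.16 with 0.0587. These FDR values also rest on 1 library per genotype.

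Most other chemokine ligand genes had no reads in these cultures. Of 30 further ligand genes 21 had 0 reads in both libraries, which allows up to 0.155 and 0.173 CPM (3 reads). Only Cxcl3 and Ccl25, a ligand of CCR9, were expressed, and neither was 2-fold apart. Ccl25 had 5.79 and 6.39 CPM, or a 1.1-fold ratio (0.841 to 1.45). Of 24 chemokine receptor genes 11 had no read in either library, Cxcr2 had 1 in each, Ccr10 had 2 and 4, and Cxcr4 had 1 and 4. The exception was Ackr3, the scavenging receptor of CXCL12, with 219 and 325 reads, 11.3 and 18.7 CPM, a fold of 1.65 (1.39 to 1.97). By counts both Cxcl12 and its scavenger were thus higher in the K5.Pp6fl/fl cells, by less than 2-fold. Ackr4, which scavenges CC chemokines, had 19 and 12 reads.

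Upstream of chemokine transcription, 2 of 23 expressed genes in the list of inducing cytokines, their receptors and adaptors were 2-fold higher and 0 lower by the rule. Over all expressed genes the shares were 0.811% and 0.195%. The 2 higher genes were Tnf, at 3.2 and 9.44 CPM (2.94-fold, 2.19 to 4.01), and Il1f6, the IL-36 alpha gene, with 7 and 23 reads (3.66-fold, 1.52 to 10.1). Both encode cytokines that activate NF-kB in keratinocytes. Over all 23 genes of this list, these included, 9 were above 0 and 14 below, with a median log2 ratio of -0.04. Of all expressed genes 46.9% were above 0. Counting intervals lay wholly above 1 for 5 of the 23 and wholly below 1 for 7, against 16.6% and 17.4% of expressed genes. Among 17 NF-kB factors and feedback genes 10 were above 0 and 7 below, none of them 2-fold apart, with a median of 0.06. A counting interval wholly above 1 was found for 7 of the 17, against 16.6% of expressed genes. An interval wholly below 1 was found for 3, against 17.4%. The most abundant by the mean of both libraries were the inhibitor Nfkbia, at 165 and 193 CPM (1.17-fold, 1.11 to 1.22), and Nfkbiz, an inducible NF-kB cofactor, at 137 and 213 CPM (1.55-fold, 1.48 to 1.63).

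Several chemokine mRNAs are short-lived and are degraded by RNA-binding proteins. Among 9 genes of mRNA decay and stability none was 2-fold apart, 6 were above 0 and 3 below, with a median of 0.14. Counting intervals lay wholly above 1 for 4 of the 9 and wholly below 1 for 1, against 16.6% and 17.4% of expressed genes. The most abundant were Zfp36l2 at 0.878-fold (0.858 to 0.897) and Hnrnpd at 0.985-fold (0.933 to 1.04). Zc3h12a, which encodes the endonuclease Regnase-1, was highest in the list at 1.79-fold (1.55 to 2.07), and the decay factor Zfp36 was at 1.28-fold (1.2 to 1.36); this pair was picked with the values in view. Among 11 expressed genes of chemokine release and presentation the median was 0.08 and none was 2-fold apart. Counting intervals lay wholly above 1 for 2 of the 11 and wholly below 1 for 2. Sdc1, a heparan sulfate proteoglycan that can hold chemokines at the cell surface, was the most abundant, at 1299 and 1555 CPM (1.2-fold, 1.18 to 1.22), ahead of the protease gene Mmp14 at 0.973-fold (0.928 to 1.02).

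**Figure D4:**
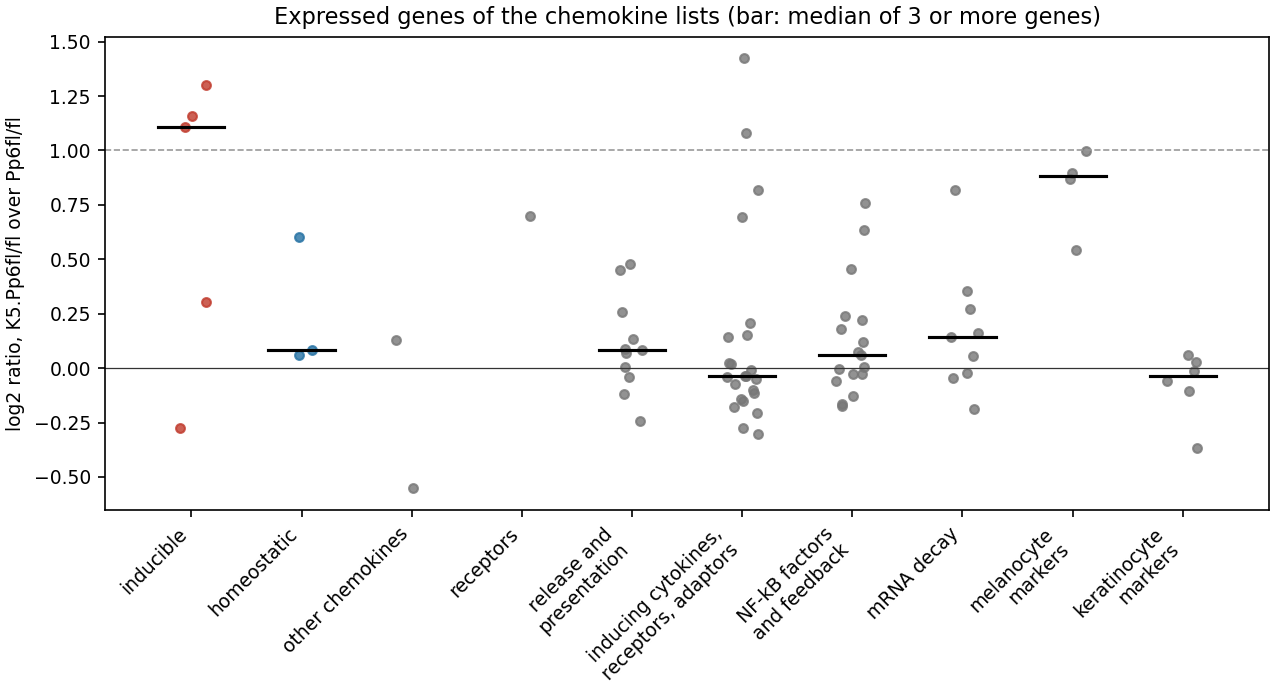
Log2 ratio, K5.Pp6fl/fl over Pp6fl/fl, of the expressed genes in each chemokine-related list and in 2 marker lists; each point is 1 gene and the black bar is the median of lists with 3 or more expressed genes. The inducible chemokines and the melanocyte markers stand highest by median (1.11 and 0.88). The list of inducing cytokines, their receptors and adaptors and the NF-kB list centre near 0 (-0.04 and 0.06). The only expressed chemokine receptor gene, Ackr3, lies at 0.70.

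Apart from Cd68, at 29.7 CPM in Pp6fl/fl and 25.0 CPM in K5.Pp6fl/fl cells, markers of other skin cells were low in both libraries. The 5 melanocyte markers summed to 7.34 CPM in Pp6fl/fl and 15.0 CPM in K5.Pp6fl/fl cells, and 4 of them were expressed, all with a ratio above 0. Tyrp1, Pmel and Dct led, at 2.48, 2.17 and 1.65 CPM against 4.95, 4.83 and 3.51. Melanocyte markers therefore moved in the same direction as Cxcl1, Ccl2 and Ccl20, and their part in those values was not tested. Macrophage markers summed to 35.2 and 29.2 CPM, nearly all of it Cd68 and Cd14, with Itgam next at 3 and 6 reads, while Adgre1, Lyz2 and Ptprc were at 0. T cell markers summed to 2.69 and 1.84 CPM, from Thy1 with 52 and 31 reads, and Cd3e, Cd3g, Cd3d and Cd2 were at 0. Langerhans and dendritic cell markers stood at 0.207 and 0.115 CPM, with Cd207, Cd74 and H2-Aa at 0. Neutrophil markers summed to 1 read in each library, and all 4 mast cell markers were at 0. Endothelial markers summed to 0.982 and 1.5 CPM, led by Pecam1 with 11 and 17 reads.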

How the data were processed

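RNA was extracted with Trizol, captured on oligo(dT) beads and made into unstranded TruSeq libraries, per the labels' protocols. Per the submitters' processing notes RSEM, edgeR and the build mm8 were used, with no version or step given; for the aligner, annotation and filters the sources used here give nothing. The authors deposited 1 table with estimated counts and FPKM per library and with their own log2 fold changes, p-values and FDR. The deposited estimated counts had been multiplied by 1 constant per library: 97.4% of values under 100 reads were whole within 0.01 reads once divided by 1 step per column (0.945742 and 1.05737). These steps were divided out, and reads were rounded for intervals. The design had assumed unscaled counts. FPKM divides by an effective gene length set by the authors, per the file headers and the deposited values; effective lengths were recovered from the ratio of depth-scaled reads to FPKM.

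CPM used TMM-scaled library sizes (edgeR 4.0.16, R 4.3.3; factors 0.99879689 and 1.0012046). Fold intervals are exact conditional binomial (Clopper-Pearson) intervals, ratios of folds exact conditional odds ratios, and read intervals exact Poisson (scipy 1.17.1). The reads carry no molecular identifiers, so they are not independent molecules. The rule and intervals were tested on simulated Poisson counts, the same error that the intervals assume. The simulation held no spread between cultures, so it cannot speak to that spread. All genes changed in it lay at higher levels than Ccl2 and Ccl20. Symbols were found for 47219 of 47719 gene IDs. Overlaps and shared sequence (BLAST, at least 90% identity over 100 bases) came from GENCODE vM21 on GRCm38, which is not the named build, so no gene coordinates are given; promoter sequences and their coordinates are RefSeq's on GRCm38.p6. Genes named beyond the members were, in each list, up to 4 past the 2-fold rule or else the 2 most abundant, in marker lists the 3 most abundant, and copies or overlapping genes of members; others are said to be named after their values were seen. Cxcl5, Ppbp, Pf4, Cxcl15, Ccl7, receptors and other neighbours are named for their place or their ligand. The members, lists and rules were chosen with earlier results of these data known.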

Additional observations from a re-analysis of the deposited data

How the results depend on the processing

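The pseudocount, the scaling, the measure (FPKM in place of counts), the expression floor, the classes, the mean in place of the median and the summing of copies or overlapping genes were varied 1 at a time. The count of 3 members past the 2-fold rule became 1, Cxcl1, with a pseudocount of 2 CPM and became 1 at a floor of 5 CPM. It stayed at 3 with a pseudocount of 0.1 CPM, with library totals, with DESeq2 size factors, by FPKM and without a floor. The difference of class medians kept its direction, from 0.47 (by the mean) to 1.08, against 1.02. The fold of summed inducible reads, 2.09, became 1.43 with Cxcl1 left out, a setting chosen after seeing the data. Of 75 values for single members under these settings 71 kept their side of the rule, and 4, those of Ccl2 and Ccl20 under the settings named above, did not. The sum of Cxcl2 with Cxcl3 had a log2 ratio of -0.17 against 0.30 for Cxcl2 alone. No paired analysis was possible because each genotype has 1 library. Depth limits Cx3cl1, Ccl2, Ccl20 and Cxcl5 most, each with under 40 reads in either library. No outlier or group check could be made with 1 library per genotype.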
